A study of Homo sapiens with 4 samples.

Results

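Polycomb repressive complex 2 (PRC2) and the enzymes that write, copy and remove DNA methylation were examined in PC3 cells after siRNA against COUP-TFII. The set was chosen by name and holds 10 genes: the PRC2 core genes EZH1, EZH2, SUZ12 and EED, the DNA methyltransferase genes DNMT1, DNMT3A and DNMT3B, the DNMT1 partner UHRF1, and the dioxygenase genes TET2 and TET3. All 10 were among the 19775 genes that an array probe set measured alone, and they accounted for 23 of the 54613 probe sets that were not controls. A further probe set, shared with a SUZ12 pseudogene, was left out. PC3 is an established human prostate cancer line that grew out of a bone metastasis and does not depend on androgen. Cells received 40 nM of COUP-TFII siRNA or 40 nM of control siRNA, and total RNA was taken at 48 h. Each group held 2 arrays, all of 1 cell line. COUP-TFII is an orphan nuclear receptor that regulates transcription, and the comparison asks which transcripts change once it is depleted.

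PRC2 places methyl groups on lysine 27 of histone H3, a mark of silenced genes. EZH2 or its paralog EZH1 is the catalytic subunit, and SUZ12 and EED are needed for activity. DNMT3A and DNMT3B set new DNA methylation, DNMT1 copies it onto the new strand behind the replication fork, and UHRF1 recognises hemimethylated DNA there and recruits DNMT1. TET enzymes oxidise methylcytosine, the first step of its removal. EZH2 is known for high expression in advanced prostate cancer, and several of these genes are textbook targets of E2F factors, which drive S phase transcription.

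The 4 arrays had median intensities from 31.7 to 32.9, and replicate arrays correlated at 0.988 for COUP-TFII siRNA and 0.987 for control siRNA on the log2 scale, against 0.975 to 0.979 between groups. The 5 epithelial markers were bright, with summed intensities of 31145 to 31546 in COUP-TFII siRNA arrays and 31338 to 31713 in control siRNA arrays. Of these, 2 passed as lower and 2 as higher. With COUP-TFII siRNA the 3 measured immune markers summed to 56.2 to 61.7, the 3 endothelial ones to 206 to 263 and the 3 stromal ones to 102.8 to 105.3. With control siRNA the sums were 48.8 to 60.6, 174 to 180.4 and 105.8 to 126, and none of these markers passed. Of the 3 measured luminal prostate markers, whose sums were 427 to 431 with COUP-TFII siRNA and 176 to 180.3 with control siRNA, 1 passed as higher and the other 2 lay below the median of all genes. ACTB control probe sets near the 3′ end read higher than those near the 5′ end. Their ratio, which rises as RNA integrity falls, was 1.42 and 1.46 in COUP-TFII siRNA arrays and 1.52 and 1.83 in control siRNA arrays. For GAPDH it was 0.994 and 0.986 against 0.957 and 0.986. The part of RNA integrity in the differences below was not tested.

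The promoter windows of these genes differ in whether they hold a spelling of the E2F site, and a window of each gene that does is shown. Any part of the site in the differences below was not tested. Sequences are RefSeq's, build GRCh38.p14, from 250 bases before to 50 bases after a transcription start. All 10 genes had at least 1 such window, and there were 20 in all. Capitals mark TTTGGCGC, TTTCCCGC, TTTGCCGC or TTTCGCGC, spellings of the E2F site, and CCAAT, the box bound by NF-Y, each searched on both strands, so that some appear as the reverse complement.
UHRF1, chr19:4909251-4909550, + strand: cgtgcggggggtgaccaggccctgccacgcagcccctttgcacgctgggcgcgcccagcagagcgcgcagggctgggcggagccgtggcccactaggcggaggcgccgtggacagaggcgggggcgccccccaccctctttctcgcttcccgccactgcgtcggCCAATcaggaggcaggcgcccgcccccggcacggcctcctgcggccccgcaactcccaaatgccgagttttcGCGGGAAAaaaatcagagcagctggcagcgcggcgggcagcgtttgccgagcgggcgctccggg
SUZ12, chr17:31936757-31937056, + strand: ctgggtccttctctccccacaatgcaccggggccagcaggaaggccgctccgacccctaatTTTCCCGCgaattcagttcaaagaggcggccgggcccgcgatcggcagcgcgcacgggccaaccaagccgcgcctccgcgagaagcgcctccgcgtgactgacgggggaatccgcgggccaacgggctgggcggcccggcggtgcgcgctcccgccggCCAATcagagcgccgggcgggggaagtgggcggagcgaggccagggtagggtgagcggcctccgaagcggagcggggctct
EZH2, chr7:148884242-148884541, - strand: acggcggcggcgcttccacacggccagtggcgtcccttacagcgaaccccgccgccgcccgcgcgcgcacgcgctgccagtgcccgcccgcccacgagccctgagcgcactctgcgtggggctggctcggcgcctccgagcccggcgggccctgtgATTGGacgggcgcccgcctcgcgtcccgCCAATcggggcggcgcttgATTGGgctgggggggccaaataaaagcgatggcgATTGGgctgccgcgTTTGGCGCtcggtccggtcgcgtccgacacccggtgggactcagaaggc
DNMT1, chr19:10194904-10195203, - strand: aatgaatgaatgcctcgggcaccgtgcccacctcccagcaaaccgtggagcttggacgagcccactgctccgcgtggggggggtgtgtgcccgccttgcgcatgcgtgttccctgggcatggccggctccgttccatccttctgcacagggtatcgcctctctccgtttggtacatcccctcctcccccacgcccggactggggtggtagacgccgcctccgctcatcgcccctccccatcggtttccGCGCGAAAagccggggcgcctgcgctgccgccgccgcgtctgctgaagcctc
EZH1, chr17:42744991-42745290, - strand: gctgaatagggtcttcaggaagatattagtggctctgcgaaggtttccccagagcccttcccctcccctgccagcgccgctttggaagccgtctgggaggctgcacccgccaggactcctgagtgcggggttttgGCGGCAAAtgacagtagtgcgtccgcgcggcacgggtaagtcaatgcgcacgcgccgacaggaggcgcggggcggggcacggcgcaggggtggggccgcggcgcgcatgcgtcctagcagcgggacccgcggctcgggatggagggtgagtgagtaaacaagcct

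One of the 4 E2F spellings stood in a window of 5 of the 10 genes, against 3.99% of 27305 genes with a window and 57.1% of 28 DNA replication genes. In UHRF1 the match began 14 bases before the start shown, and a further UHRF1 window, for another start, held TTTCGCGC 160 bases before its own. The match began 2 bases before the start in DNMT1 and at base 2 after it in EZH2, and lay 189 bases before it in SUZ12 and 115 bases before it in EZH1. CCAAT was present 4 times in the EZH2 window and in a window of 6 of the 10 genes, against 39.7% of all genes. The element AGGTCA, which COUP-TF and other nuclear receptors bind, was found for DNMT3A alone among the 10 genes, against 16.5% of all genes. It was a single match, seen in the overlapping windows of 2 DNMT3A starts. The G2/M element TTTGAA was in a window of SUZ12, DNMT3A and TET2, against 18.2% of genes, and the GC box GGGCGG in windows of 7 of the 10, against 48.3%. No match overlapped one of a different motif, while GC boxes overlapped each other in a window of EZH2 and one of UHRF1. The 1 DNMT3B window available, chr20:32779602-32779901, was poor in CpG, with 3 against a median of 14 over all windows. That of EED held 16 and the UHRF1 window shown held 36. Starts without a window were not searched, so a gene counted as lacking a motif, DNMT3B among them, may carry it at another start. A match describes letters in a window and not binding.

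After COUP-TFII siRNA 4 of the 10 genes fell and none rose in the limma fit. At an unadjusted p under 0.05 the numbers were 5 lower and 2 higher. The share of all genes at that threshold was not counted, here or for the lists below. UHRF1 fell most, followed by SUZ12, DNMT3B and EED. EZH2 and DNMT1 were slightly lower and EZH1, TET3 and DNMT3A slightly higher without passing. Over all genes tested, 10.3% passed as lower and 12.7% as higher (limma, adjusted p under 0.05, Benjamini-Hochberg), 23% together. The median log2 difference of the 10 genes was −0.17, against 0.01 over all genes. In a fit of every probe set, 3 of the 23 passed, all lower, against 12.2% of all probe sets, 5.67% lower and 6.51% higher. Leaving out 1 array at a time left 1 or 2 genes of the set called lower and none higher: 2 without either COUP-TFII siRNA array and 1 without either control array. Differences are of log2(intensity + 16), which understates changes of dim genes, and levels of different probe sets cannot be set against each other. In these bulk samples fewer cells in a given state and less RNA per cell cannot be told apart.

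**Figure D1:**
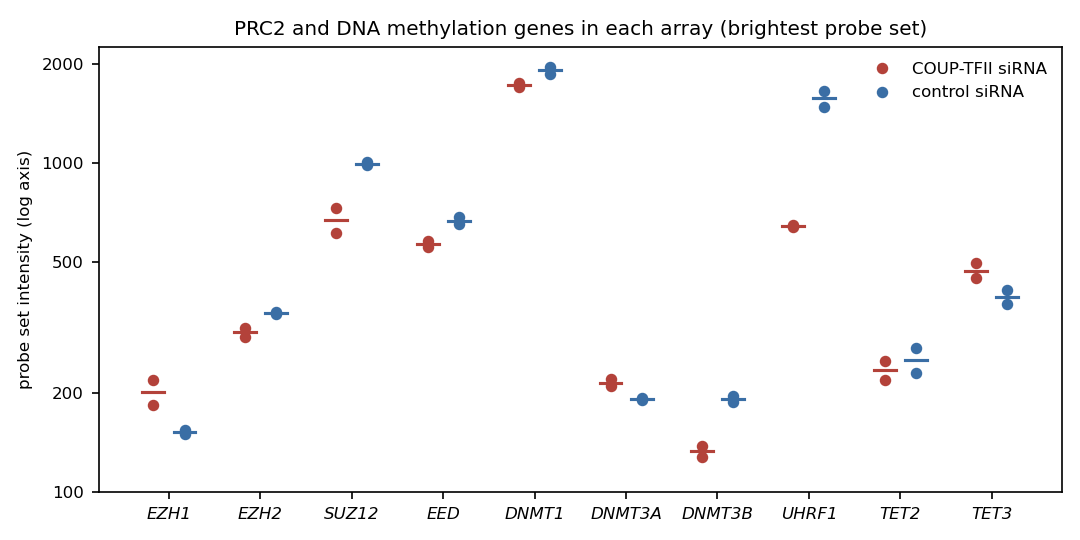
Probe set intensity (log axis) of each gene of the set in the 2 COUP-TFII siRNA arrays (red, left) and the 2 control siRNA arrays (blue, right), with bars at group means. UHRF1 is separated most, at 649 and 638 against 1480.2 and 1655, and only TET2 has overlapping groups.

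UHRF1, the reader of hemimethylated DNA, had intensities of 649 and 638 in COUP-TFII siRNA arrays, against 1480.2 and 1655 in control siRNA arrays. Both COUP-TFII siRNA arrays lay far below both controls. The means were 643 ± 7.6 and 1568 ± 124 (SD, n = 2 each), a log2 difference of −1.26 ± 0.07 (SE; limma adjusted p = 6.45e-06). Only 0.961% of genes had a difference as low or lower. UHRF1 has 1 probe set, which passed in the fit of all probe sets too, and it kept its direction and its call in all 15 alternatives, from −1.34 to −0.90.

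Among the methyltransferases, DNMT3B fell. Its intensities were 137.9 and 128.3 with COUP-TFII siRNA and 196.7 and 188.2 with control siRNA, so that the groups were apart by several times the spread within them. The log2 difference was −0.48 ± 0.12 (SE; limma adjusted p = 0.0186), on its 1 probe set. The call did not survive the loss of any array (limma adjusted p = 0.0797 without COUP-TFII siRNA replicate 1, 0.115 without replicate 2, 0.141 without control siRNA replicate 1 and 0.115 without replicate 2), and the difference was −0.12 once arrays were centred by their median housekeeping level.

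DNMT1, the maintenance enzyme, had 1693 and 1744 with COUP-TFII siRNA against 1959 and 1860.1 with control siRNA. Both treated arrays were lower, by a small amount: the log2 difference was −0.15 ± 0.06 (SE; limma adjusted p = 0.087). The ratio of group means was 0.9 for DNMT1 and 0.41 for UHRF1 on the same arrays.

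DNMT3A had 220.8 and 210.1 with COUP-TFII siRNA and 190.04 and 193.5 with control siRNA on its brightest probe set. The groups did not overlap, yet the log2 difference of 0.16 ± 0.11 (SE) did not pass (limma adjusted p = 0.374). Its second probe set read 142.1 and 148.9 against 106.8 and 113.7, a difference of 0.36 ± 0.12 (SE; limma adjusted p = 0.111 over all probe sets). Its remaining probe set was dim, at 13.9 to 18.9, with overlapping groups.

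In the PRC2 core, SUZ12, the scaffold subunit, fell. It had 729.6 and 612 with COUP-TFII siRNA against 1003 and 986 with control siRNA. The 2 treated arrays differed from each other more than the controls did, but both lay below them. The log2 difference was −0.56 ± 0.09 (SE; limma adjusted p = 0.0016). Of the other 2 SUZ12 probe sets, both dim, one read 17.3 and 19.2 against 31.7 and 25.3 and the other 2.62 and 5.2 against 1.49 and 2.17, and neither passed. The call was lost without control siRNA replicate 1 (limma adjusted p = 0.0598) and replicate 2 (0.056), when the 3 probe sets were averaged (−0.26, adjusted p = 0.211), and once arrays were centred by their median housekeeping level (−0.20, adjusted p = 0.0547).

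EED, which binds methylated H3K27, had 578 and 555 with COUP-TFII siRNA and 683 and 651 with control siRNA. The groups did not overlap and the difference was small, −0.23 ± 0.07 (SE; limma adjusted p = 0.0479). It did not pass among all probe sets (limma adjusted p = 0.0717) nor in any fit that dropped an array (limma adjusted p = 0.105 without COUP-TFII siRNA replicate 1, 0.166 without replicate 2, 0.254 without control siRNA replicate 1 and 0.153 without replicate 2). With its dim second probe set averaged in, which read 8.61 and 13.5 against 9.17 and 7.18, the difference was −0.04.

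The catalytic subunits lay on opposite sides of no change, and neither passed. EZH2 had 316 and 295 with COUP-TFII siRNA against 347 and 352 with control siRNA, a log2 difference of −0.19 ± 0.09 (SE; limma adjusted p = 0.19). EZH1 had 184.4 and 218.9 against 154.4 and 150.5, a difference of 0.37 ± 0.13 (SE; limma adjusted p = 0.07). The arrays of each gene separated by group. A second EZH1 probe set read 111.3 and 137.3 against 89.6 and 63.8, a difference of 0.60 ± 0.18 (SE; limma adjusted p = 0.0854 over all probe sets). The 3 remaining EZH1 probe sets had overlapping groups. With all its probe sets averaged, EZH1 was at 0.19 (limma adjusted p = 0.447).

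Within each array, EZH1 minus EZH2 on the log2 scale was −0.73 and −0.41 with COUP-TFII siRNA and −1.09 and −1.14 with control siRNA. The shift between groups was 0.55, with no overlap. UHRF1 minus DNMT1 was −1.36 and −1.43 with COUP-TFII siRNA against −0.40 and −0.17 with control siRNA, a shift of −1.11. DNMT3B minus DNMT3A was −0.62 and −0.65 against 0.05 and −0.04, a shift of −0.64. SUZ12 minus EZH2 was 1.17 and 1.01 against 1.49 and 1.44, a shift of −0.38. These 4 contrasts do not depend on how arrays are scaled, apart from the added constant. All 4 separated by group, but so did each of their genes alone, so the separation adds no support. The share of other gene pairs that separate was not counted. The smallest two-sided p of an exact permutation test at this size is 0.333.

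**Figure D2:**
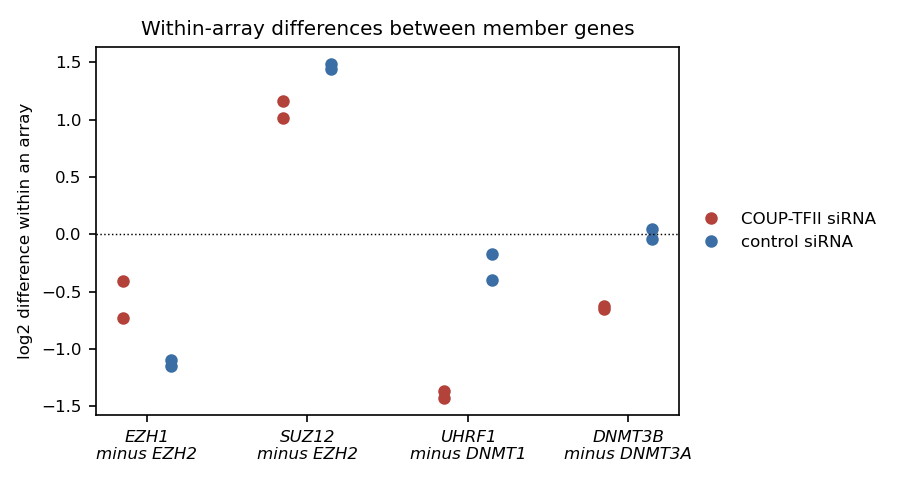
Log2 difference between 2 genes of the set within each array, COUP-TFII siRNA red (left) and control siRNA blue (right). The height of a pair reflects its probe sets and only the shift between groups can be read: 0.55 for EZH1 minus EZH2, −0.38 for SUZ12 minus EZH2, −1.11 for UHRF1 minus DNMT1 and −0.64 for DNMT3B minus DNMT3A.

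The TET dioxygenase genes did not pass. TET3 had 447 and 496 with COUP-TFII siRNA and 411 and 372 with control siRNA, a log2 difference of 0.26 ± 0.09 (SE; limma adjusted p = 0.0755). Its second probe set was also higher in both treated arrays, at 58.4 and 60.3 against 41 and 36.9, and its remaining probe set had overlapping groups. TET2 had 250.5 and 219.4 against 274.3 and 230.4, the only overlapping pair of groups in the set. Its difference of −0.09 ± 0.12 (SE; limma adjusted p = 0.661) was 0.02 without control siRNA replicate 1, and its 2 dimmer probe sets pointed in opposite directions, at −0.82 ± 0.35 and 0.16 ± 0.22 (SE). The average over its probe sets was −0.25 (limma adjusted p = 0.286).

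**Figure D3:**
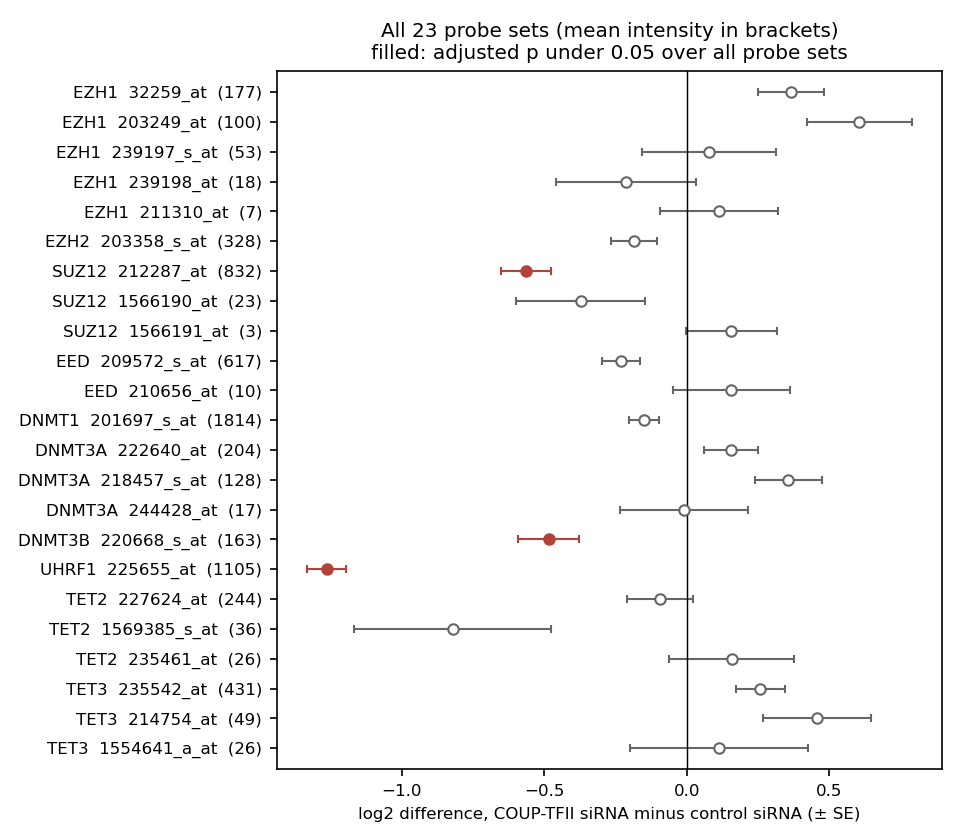
Log2 difference (COUP-TFII siRNA minus control siRNA) with its standard error for each of the 23 probe sets, labelled with its mean intensity over 4 arrays. The 3 filled points, for UHRF1, SUZ12 and DNMT3B, passed over all probe sets, and 8 of the 23 lie below the median brightness of all probe sets.

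For 9 of the 10 genes the arrays of the groups did not overlap, 6 lower and 3 higher with COUP-TFII siRNA. Over all genes 57.5% did not overlap, 26.7% lower and 30.8% higher. TET2 was the exception.

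DNA replication genes, the classic E2F targets, were set beside the 10 genes. Of 31 replication genes 27 fell and none rose, with 29 lower and 0 higher at an unadjusted limma p under 0.05. Their median log2 difference was −0.79 (interquartile range −1.36 to −0.63). GINS2, of the helicase complex, had 66.9 and 94.8 with COUP-TFII siRNA against 424 and 462 with control siRNA. POLE2, a polymerase subunit, had 75.5 and 46 with COUP-TFII siRNA against 246.8 and 246.3 with control siRNA. These 2, with the licensing factor CDC6 and the initiation factor MCM10, had log2 differences from −2.26 to −1.68. GINS2 had the lowest, but 1 of its 3 probe sets passed, and their average gave −0.97. UHRF1, at −1.26, lay within the interquartile range of the list, with 11 of the 31 lower than it. DNMT1 and EZH2 lay above nearly all of the list: 30 of the 31 were lower than DNMT1 and 29 were lower than EZH2. For SUZ12 the number was 27, for DNMT3B and EED 29. The list with an array left out had 19 to 22 genes lower, the fewest without control siRNA replicate 2, which left 19 called.

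Other subunits of PRC2 moved in both directions. Of 9 genes listed as accessory 3 fell and 1 rose, the other 5 not passing, and the median of the 9 was 0.01. Of those 5, RBBP4, named after its values were seen, had a log2 difference of 0.06. Of its 6 probe sets 3 passed as higher in the fit of all probe sets, opposite in sign to RBBP7 below. PHF19, a Polycomb-like protein that helps PRC2 bind chromatin, had 497 and 461 with COUP-TFII siRNA against 945 and 989 with control siRNA, a log2 difference of −0.99 ± 0.07 (SE; limma adjusted p = 2.44e-05), and all 3 of its probe sets passed. MTF2, another Polycomb-like protein, had 439 and 402 against 626 and 606, with 4 of 5 probe sets lower. JARID2, which recruits PRC2 and modulates its activity, had 936 and 816 with COUP-TFII siRNA against 498 and 447 with control siRNA, a difference of 0.87 ± 0.09 (SE; limma adjusted p = 0.000169), and 2 of its 3 probe sets were higher. PHF19 and JARID2 had larger differences than any core subunit, in opposite directions, and kept their calls in all 15 alternatives. The histone binding subunit RBBP7 fell by 0.28, but not without control siRNA replicate 1 (limma adjusted p = 0.0766) or replicate 2 (0.0642), and with arrays centred by their median housekeeping level it was 0.08.

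The partner complex PRC1, which binds the H3K27 mark and ubiquitinates histone H2A, had 5 of 18 measured genes higher and 2 lower, with a median of 0.12. PHC1 rose by 0.66, PCGF5 by 0.61, CBX7 by 0.61 and CBX2 by 0.44, while PCGF6 fell by 0.49 and PHC2 by 0.35. The 1 probe set of CBX7 did not pass in the fit of all probe sets. PCGF5, a subunit of a variant PRC1, had 694 and 728 with COUP-TFII siRNA against 465 and 454 with control siRNA, but 1 of 5 probe sets passing and 0.14 when they were averaged. Averaged, CBX2 was −0.09, PHC2 −0.14 and PHC1 0.39, of which PHC1 alone kept its call. With arrays left out PCGF5 kept its call, whereas PHC1 (limma adjusted p = 0.0541 to 0.153), CBX7 (0.0847 to 0.286) and PCGF6 (0.0568 to 0.148) lost it in each of the 4 fits, CBX2 without control siRNA replicate 1 (0.0549) or replicate 2 (0.0591), and PHC2 without control siRNA replicate 1 (0.0509).

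Of 5 measured genes of H3K27 demethylases and H2A deubiquitination, KDM6B and ASXL2 rose by 0.46 and 0.42 and KDM6A and USP16 fell by 0.41 and 0.19. None of the 3 USP16 probe sets passed in the fit of all probe sets. KDM6B, an H3K27 demethylase, had 185.8 and 172 with COUP-TFII siRNA against 127.3 and 123.3 with control siRNA. Its paralog KDM6A had 264.4 and 227.5 with COUP-TFII siRNA against 342 and 319 with control siRNA. None of these calls held with every array left out: KDM6B (limma adjusted p = 0.0999 to 0.164), KDM6A (0.0513 to 0.185) and USP16 (0.0725 to 0.226) lost it in all 4 fits, and ASXL2 kept it only without control siRNA replicate 1 (0.0437 to 0.126). All 4 lost it when probe sets were averaged (adjusted p = 0.134 to 0.41), with KDM6A at −0.19 and KDM6B at 0.31.

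Among 16 partners of DNA methylation 2 fell and 3 rose, with a median of 0.10. HELLS, a remodeller needed for DNA methylation, had 35.8 and 44.6 with COUP-TFII siRNA against 149.3 and 125.1 with control siRNA, a log2 difference of −1.45 ± 0.18 (SE; limma adjusted p = 0.000433). Its probe sets were lower in 3 of 5 cases, and averaging them gave −0.65. PCNA, the sliding clamp that DNMT1 binds, had 1591 and 1454 against 2844 and 2876, a difference of −0.90 ± 0.06 (SE; limma adjusted p = 1.26e-05). HELLS and PCNA kept their calls in all 15 alternatives, as UHRF1 did. IDH1 rose by 0.35, GADD45B by 0.31 and GADD45A by 0.20. GADD45A was lost in each fit with an array left out (limma adjusted p = 0.0752 to 0.165), IDH1 without control siRNA replicate 2 (0.0629) and GADD45B without control siRNA replicate 1 (0.062) or replicate 2 (0.0646). The relatives of the set did not pass: UHRF2 had 679.6 and 625 against 532 and 571, a difference of 0.24 ± 0.08 (SE; limma adjusted p = 0.0607), opposite in sign to UHRF1. TET1 read 47.8 and 51.2 against 40.03 and 42.8 and DNMT3L 9.37 and 17.4 against 2.42 and 20.01.

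Of 6 measured readers of methylated CpG, ZBTB33 rose by 0.35 and none fell (3 higher and 0 lower at an unadjusted limma p under 0.05), a call kept only without COUP-TFII siRNA replicate 2 (limma adjusted p = 0.0333 to 0.0896 with 1 array left out) and lost when its probe sets were averaged (0.18). Of 18 other histone methyltransferases 4 fell and 2 rose. SUV39H2, an H3K9 enzyme, had 98.5 and 97.6 with COUP-TFII siRNA against 233 and 215.3 with control siRNA (−1.07 ± 0.12, SE; limma adjusted p = 0.000321), and NSD2, an H3K36 enzyme, had 472 and 486 against 863 and 820.2 (−0.79 ± 0.07, SE; limma adjusted p = 7.11e-05). Both kept their calls in all 15 alternatives, at −0.65 for SUV39H2 and −0.53 for NSD2 when probe sets were averaged. SMYD3 fell by 0.42 and PRMT5 by 0.27, and SETDB1 and CARM1 rose by 0.47 and 0.36. With arrays left out SETDB1 (limma adjusted p = 0.0533 to 0.0827) and PRMT5 (0.0515 to 0.127) lost their calls in each fit (SETDB1 also when averaged, at 0.30), SMYD3 without COUP-TFII siRNA replicate 2 (0.0864) or control siRNA replicate 1 (0.0852), and CARM1 in each fit except that without control siRNA replicate 2 (0.0411 to 0.0875). Over these 6 chromatin lists 14 of 72 measured genes rose (19.4%) and 13 fell (18.1%), against 12.7% and 10.3% of all genes. The counts were 6 higher and 9 lower without COUP-TFII siRNA replicate 1, 6 and 8 without its replicate 2, 4 and 6 without control siRNA replicate 1, and 3 and 8 without its replicate 2.

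**Figure D4:**
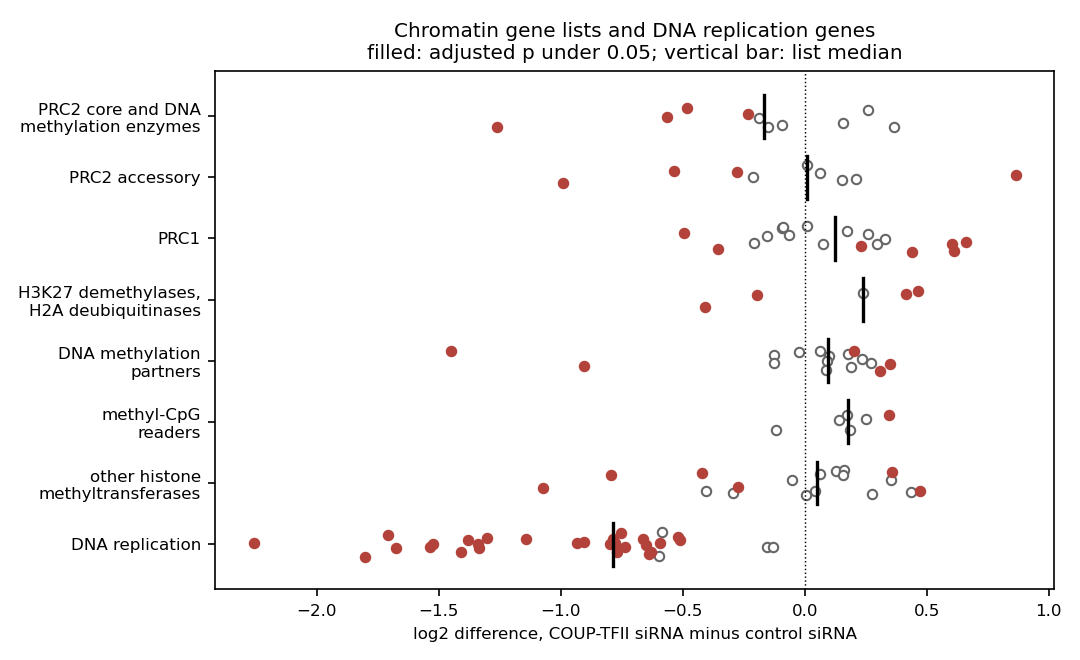
Log2 difference (COUP-TFII siRNA minus control siRNA) of each measured gene, by list, with list medians as vertical bars and filled points for limma adjusted p under 0.05. The set of 10 has a median of −0.17, the 6 chromatin lists scatter on both sides of 0, and DNA replication genes centre on −0.79.

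Genes reported elsewhere as silenced by these enzymes were described as 2 short lists. Of 9 measured genes reported as repressed by EZH2 in prostate cancer, CDKN1C rose by 0.31, CDH1 fell by 0.30, and the other 7 did not pass. The median was 0.09. Means of these genes in control siRNA arrays ran from 8.2 to 4786, with CDH1 at 2641 and CDKN1C at 944, so not all were silent in these cells. Whether EZH2 represses them in PC3 was not tested. Both calls were lost in each fit with an array left out, at 0.25 to 0.37 for CDKN1C and −0.38 to −0.21 for CDH1. With probe sets averaged CDKN1C lost its call (limma adjusted p = 0.0765), whereas CDH1 kept it, at −0.42 (limma adjusted p = 0.0158). Of 11 germline genes that DNA methylation keeps silent in somatic cells none passed in either direction in the limma fit, and 1, TEX101, named after its values were seen, was lower at an unadjusted p under 0.05. All 11 had means below the median of all genes, and no value exceeded 65.5.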

How the data were processed

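Per the labels' protocols, biotin-labelled RNA made with a 3′ IVT kit was read on Affymetrix arrays, with 1 colour. The deposited values are intensities per probe set, linear, between 0.61 and 15890. How the authors summarised and normalized them is not given in the sources used here. Array medians differed by 3.66%, under a limit of 5%, so no scaling was added. Values were used as log2(intensity + 16).

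The platform table named 1 gene for 41091 probe sets, several for 1801 and none for 11721, and 62 were controls. Symbols were updated by Entrez identifier (41037 matched) in a RefSeq table of GRCh38.p14. The brightest single-gene probe set stood for a gene, avoiding _x_at where possible. Limma 3.58.1 in R 4.3.3 (lmFit, eBayes with intensity trend, no replicate block, 2 residual degrees of freedom) was run over all genes and over all probe sets. Benjamini-Hochberg adjustment was at 0.05. The code was also run on data simulated with limma's own fitted variances, which checks the code and not the calls made here. The labels do not say whether replicates were separate cultures, so the spread that the p-values measure may be technical. The number of arrays limits precision.

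All 10 genes with their probe sets were named. From each other list up to 4 genes per direction that passed were named, with the largest differences, and UHRF2, TET1 and DNMT3L in any case. The genes and lists were chosen with earlier results of these data known. The transcript targeted by the siRNA is not reported here. Alternatives were the replicate block, quantile normalization, housekeeping centring, pseudocounts of 1 and 64, dim features left out, 1 prior variance, averaged probe sets, _x_at allowed, a threshold of 0.01 and each array left out. Figures used matplotlib 3.10.9.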

Additional observations from a re-analysis of the deposited data

How the results depend on the processing

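UHRF1 kept its direction and call in all 15 alternatives, as did 10 of the 32 other named genes in every alternative that tested them. The median level of 15 housekeeping genes was that of HPRT1 in control siRNA arrays, at 2183 and 2185. In COUP-TFII siRNA arrays it was that of SDHA, at 1710 and 1688. HPRT1 itself passed as lower, at −0.77. On the probe sets used, PPIA read 1 to 14.2 and EEF1A1 153.7 to 204.5. Centring arrays by that median raised the all-gene median by 0.36, more than the −0.04 of the 15 genes, and 91.8% of calls were then higher, against 55.3%. It gave 8722 genes higher and 781 lower (against 2519 and 2039), 17380 probe sets higher and 1362 lower (3554 and 3094), 4 genes of the set higher and 1 lower, 7 of its probe sets higher and 1 lower, and 53 genes of the chromatin lists higher and 5 lower. It turned EZH2 to 0.17, EED to 0.13, DNMT1 to 0.21, TET2 to 0.26, CDH1 to 0.064, USP16 to 0.17, PRMT5 to 0.088, PHC2 to 0.0048 and RBBP7 to 0.083. Centring on their mean, added after seeing the data, shifted the all-gene median by 0.0033. It left 3 genes of the set lower, with EED at a limma adjusted p of 0.0539, and 1 probe set of the set higher. DNMT3B was then at −0.48 and SUZ12 at −0.56. With 1 prior variance for all there were 754 genes higher and 814 lower, 172 probe sets higher and 355 lower, 1 gene and 1 probe set of the set lower, and 2 higher and 5 lower in the chromatin lists. Averaged probe sets gave 1631 genes higher, 2 of the set lower, and 9 higher in the chromatin lists, and turned CBX2 to −0.095. A threshold of 0.01 gave 1450 genes higher and 1318 lower, 1638 and 1762 probe sets, 2 genes and 2 probe sets of the set lower, and 9 higher in the chromatin lists. Without dim features limma pooled the spread over all genes (19800 total degrees of freedom, against 8.78), so its calls there do not reflect a gene's own replicates. In that fit 5483 probe sets were higher, with 2 genes and 4 probe sets of the set higher and 5 probe sets of it lower, and 23 chromatin genes higher. Leaving out 1 array gave 882 to 1222 genes higher and 886 to 1370 lower, 314 to 1017 probe sets higher and 403 to 1522 lower, 1 to 2 genes and 1 to 2 probe sets of the set lower, 3 to 6 chromatin genes higher and 6 to 9 lower, and put TET2 between −0.21 and 0.024, above 0 only without control siRNA replicate 1. An arm with 1 array was assumed to vary like the other. The causes of the moves under the other alternatives were not tested.

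The replicate block gave 2849 genes higher and 2277 lower, 4 of the set lower and none higher, and changed no call of its 10 genes. The labels name no shared transfection or day, so the numbers were not taken as pairs. Deviations of same-numbered arrays from their group means correlated at 0.0101. That value covers all probe sets, dim ones included, and cannot show whether brighter genes are paired.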
